A study of Monascus purpureus with 6 samples.

Results

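The G-protein alpha subunits and the regulators of G protein signaling (RGS proteins) of *Monascus purpureus* are described here at the level of their transcripts. A unigene, which is a transcript assembled from the reads themselves without a genome, was taken when its Pfam annotation named the G-protein alpha subunit domain or the RGS domain and its mean FPKM over all libraries was at least 0.1. FPKM is the number of fragments per kilobase of transcript, scaled to the fragments of the library, so it is a level per length. Of 24261 unigenes in the table, 20581 had FPKM listed, and 17 of these carried either domain. The limit kept 16 of the 17, namely 13 alpha subunit unigenes and 3 RGS unigenes, and no unigene carried both domains. The isoform TRINITY_DN32_c0_g1_i8-C2A fell just outside the limit with a mean FPKM of 0.055, and TRINITY_DN32_c0_g1_i9-C2A lay just inside it with 0.102. The 16 members came from 7 assembled genes, so most of them are isoforms that share fragments, not separate genes. The best protein matches of all 16 named *M. purpureus*, as the species label does.

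The libraries were made from total RNA of *M. purpureus* MP2022, a single wild-type strain of this filamentous fungus, whose cells were collected at day 1 of growth in fermentation medium. The taurine group (3 libraries) had 4.0 g/L taurine, a dose given in the study's methods and not in the labels, and the control group (3 libraries) had none. The comparison addresses how transcription differs in mycelia given taurine, a sulfonic acid that the study added to promote ethanol and pigment formation. The labels do not say whether the libraries of a group came from separate cultures, so the p-values measure only the spread between these libraries, which may be technical.

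In a resting heterotrimeric G protein, an alpha subunit that holds GDP is bound to a beta and gamma pair at the membrane. A receptor with 7 membrane-spanning helices makes the alpha subunit exchange GDP for GTP, both parts then separate and act on targets such as adenylate cyclase, protein kinase A and MAP kinase cascades, and an RGS protein ends the signal by speeding up GTP hydrolysis. Filamentous fungi use these proteins to sense nutrients and pheromones, and the balance between growth, conidiation and secondary metabolism depends on them. In *Aspergillus nidulans* the RGS protein FlbA acts on the alpha subunit FadA, and in *Monascus ruber* the alpha subunit Mga1 has been linked to citrinin and pigment formation.

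The 6 libraries held roughly 18300000 to 20000000 fragments each, with 17168 to 17497 unigenes above 0 and FPKM sums of 797244 to 865009. Depth was inferred from how far apart small FPKM values lie at a given unigene length. In unigenes kept out of that fit, 51.1% to 59.6% of small values came out whole to within 0.1 of a fragment, where an even spread would give 20%, so the fragment numbers below are approximate. Control replicate 2 stood apart, with correlations of log2(FPKM + 1) of 0.906 to 0.915 with the other libraries, while the remaining pairs had 0.930 to 0.939. A limma fit of log2(FPKM + 1) over 20381 unigenes gave each log2 fold change, which is taurine minus control and understates the change of low transcripts, and its two-sided p-values were adjusted over these unigenes by the Benjamini-Hochberg method.

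The alpha subunit and RGS transcripts had overlapping levels in the taurine and control libraries for 15 of 16 members, and the groups did not overlap for 1, while 6.41% of all tested unigenes had groups that did not overlap. No member passed an adjusted p of 0.05 in limma (0 of 16; 0.0393% of all tested unigenes did), and the adjusted p was 0.999 for each. At an unadjusted p under 0.05, 1 of 16 members was lower with taurine and none was higher, while of all tested unigenes 1.03% were lower, 1.63% were higher and 2.66% passed in either direction. The median log2 fold change was -0.05 over the 13 alpha members and -0.06 over the 3 RGS members, against 0.02 over all tested unigenes. Of the members 5 had a positive and 11 a negative value, and over all tested unigenes 11055 were positive and 9326 negative. The alpha median was 0.12 without control replicate 2 and 0.01 with isoforms summed to genes, and the RGS median was 0.06 without control replicate 2, so the signs of both medians depend on the setting.

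**Figure D1:**
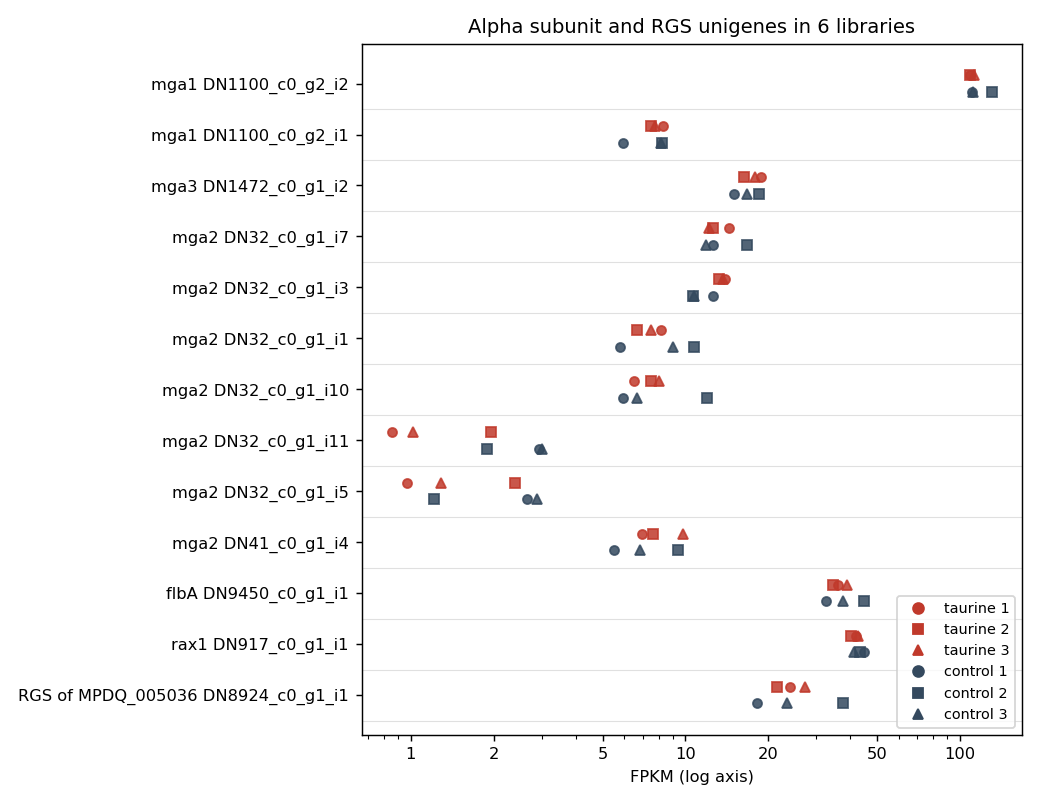
FPKM of the 13 members with a mean of at least 1 in each library, on a log axis; in each row the 3 taurine libraries are above the 3 control libraries. The taurine and control points overlap in every row but that of *mga2* isoform i3, where taurine libraries read 13.2 to 13.9 and control libraries 10.7 to 12.6.

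*mga1*, named by its nucleotide match to the alpha subunit gene of *M. ruber*, was the most abundant alpha subunit. Its main isoform, TRINITY_DN1100_c0_g2_i2-C2A, had an FPKM of 109, 109 and 112 in the taurine libraries, against 111, 132 and 112 in the control libraries. The taurine values lay close together, and control replicate 2 alone was above the rest. The log2 fold change was -0.09 (SE 0.09, 95% interval -0.31 to 0.12). The level was at the 94.9th percentile of tested unigenes and rested on an estimated 4385 to 5310 fragments per library.

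The other isoform of *mga1*, TRINITY_DN1100_c0_g2_i1-C2A, had 8.27, 7.52 and 7.76 FPKM with taurine, against 5.95, 8.22 and 8.17 FPKM in the control. Control replicate 1 was the low library there, and the groups overlapped, with a log2 fold change of 0.08 (SE 0.15). The main isoform held 92.9% to 93.6% of summed *mga1* FPKM in the taurine libraries and 93.2% to 94.9% in the control libraries. The sum of both isoforms was 118 ± 1.79 FPKM with taurine and 126 ± 12.4 FPKM in the control (SD, n = 3 each), and an exact permutation test of the 3 against 3 libraries, whose smallest two-sided p is 0.1, gave p = 0.6.

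*mga3* is represented by 1 member, TRINITY_DN1472_c0_g1_i2-C1A, whose best protein match is the alpha-2 subunit of *M. purpureus*. It had 18.8, 16.4 and 18.0 FPKM with taurine, against 15.0, 18.6 and 16.8 FPKM in the control. The groups interleaved, and the log2 fold change was 0.07 (SE 0.11, 95% interval -0.20 to 0.34).

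*mga2* had by far the most assembled forms. The assembled gene TRINITY_DN32_c0_g1 gave 9 members, and a separately assembled unigene, TRINITY_DN41_c0_g1_i4-C3A, matched the same hypothetical protein, MPDQ_000481. All 10 matched a partial sequence of *mga2* from *M. ruber*, and KEGG placed them in a different alpha subunit class from *mga1* and *mga3*. Since the isoforms share fragments that the counting could have divided between them, the value of each isoform is uncertain and the gene total is given first.

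The summed FPKM of TRINITY_DN32_c0_g1, including the isoform outside the limit, was 45.6, 45.3 and 44.4 with taurine, against 42.6, 54.4 and 45.2 in the control. Control replicate 2 was again the high library, and the other 5 libraries lay between 42.6 and 45.6. The means were 45.1 ± 0.638 with taurine and 47.4 ± 6.18 in the control (SD, n = 3 each; exact permutation p = 0.9). The log2 ratio of these means was -0.07, and it was 0.04 without control replicate 2. Adding TRINITY_DN41_c0_g1_i4-C3A gave 53.2 ± 0.854 with taurine and 54.6 ± 8.13 in the control (SD, n = 3 each; exact permutation p = 1.0).

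Isoform i3 (TRINITY_DN32_c0_g1_i3-C2A) was the member whose groups did not overlap. It had 13.9, 13.2 and 13.7 FPKM with taurine, against 12.6, 10.7 and 10.7 FPKM in the control, so each taurine library was above each control library. The log2 fold change was 0.25 (SE 0.10, 95% interval -0.0021 to 0.50; unadjusted p = 0.0514). This was 1 of 16 members with the taurine libraries above, while 3.78% of all tested unigenes showed the same, and no member had the taurine libraries below, against 2.62%. Its share of the *mga2* sum was 29.3% to 30.9% with taurine and 19.6% to 29.5% in the control, with control replicate 1 beside the taurine libraries.

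Isoform i11 (TRINITY_DN32_c0_g1_i11-C2A) was the member with the lowest unadjusted p. It had 0.85, 1.95 and 1.02 FPKM with taurine, against 2.92, 1.89 and 3.0 FPKM in the control. Taurine replicate 2 was above control replicate 2, so the groups overlapped. The log2 fold change was -0.68 (SE 0.28, 95% interval -1.35 to -0.01; unadjusted p = 0.0467), on an estimated 43 to 148 fragments per library. Isoform i5 (TRINITY_DN32_c0_g1_i5-C2A) had 0.97, 2.39 and 1.29 FPKM with taurine, against 2.65, 1.21 and 2.89 FPKM in the control. In i5, control replicates 1 and 3 and taurine replicate 2 were the high libraries, a split that runs across the groups. In i11, control replicates 1 and 3 were likewise the highest, with taurine replicate 2 and control replicate 2 close to each other below them. For i5 the log2 fold change was -0.35 (SE 0.33), and it came to -0.18 when taurine replicate 1 was left out, -0.19 for control replicate 3, -0.57 for taurine replicate 2 and -0.60 for control replicate 2.

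Isoform i7 (TRINITY_DN32_c0_g1_i7-C2A) had 14.5, 12.7 and 12.2 FPKM with taurine, against 12.6, 16.7 and 11.9 FPKM in the control. Isoform i1 (TRINITY_DN32_c0_g1_i1-C2A) had 8.16, 6.65 and 7.51 FPKM with taurine, against 5.76, 10.8 and 9.05 FPKM in the control. Isoform i10 (TRINITY_DN32_c0_g1_i10-C2A) had 6.48, 7.5 and 8.04 FPKM with taurine, against 5.94, 12.0 and 6.68 FPKM in the control. In all 3 isoforms control replicate 2 was the highest library, and the log2 fold changes were -0.05 (SE 0.15), -0.14 (SE 0.22) and -0.09 (SE 0.25) for i7, i1 and i10. TRINITY_DN41_c0_g1_i4-C3A had 6.95, 7.65 and 9.81 FPKM with taurine, against 5.51, 9.37 and 6.82 FPKM in the control, with a log2 fold change of 0.16 (SE 0.21). It came to 0.01 when control replicate 1 was left out, 0.04 for taurine replicate 3, 0.26 for taurine replicate 1 and 0.34 for control replicate 2.

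The 3 remaining members were further isoforms of TRINITY_DN32_c0_g1 with mean FPKM of 0.102 to 0.420. Their values ran from 0 to 0.87, with 4 of 18 listed at 0, and none had an unadjusted p under 0.05. Another assembled gene, TRINITY_DN160_c0_g1, carried an alpha subunit annotation in KEGG but the COX24 domain in Pfam, and its protein match, MPDQ_000482, has the locus number next to that of *mga2*. It was not a member. No strand setting is stated in the sources used here, and whether the ends of both genes overlap was not tested. If they do, reads from the shared stretch could not be told apart.

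**Figure D2:**
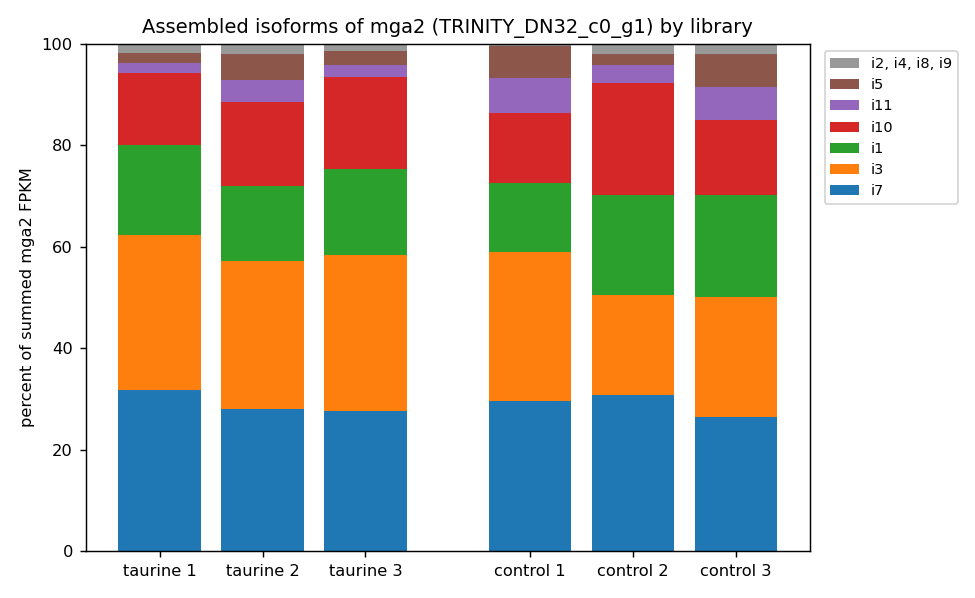
Percent of the summed FPKM of TRINITY_DN32_c0_g1 (*mga2*) held by each assembled isoform, for the 3 taurine libraries at the left and the 3 control libraries at the right. Isoform i3 holds 29.3% to 30.9% in the taurine libraries and 19.6% to 29.5% in the control libraries, and i7 holds 26.4% to 31.7% over all 6.

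The RGS proteins had 3 members, each from a gene with a single assembled form. *flbA* (TRINITY_DN9450_c0_g1_i1-C2A) matched FlbA of *M. ruber*, and KEGG named it after SST2, the yeast RGS protein that damps the pheromone response. It had 36.0, 34.6 and 38.7 FPKM with taurine, against 32.6, 44.7 and 37.5 FPKM in the control. All 3 taurine values lay inside the range of the control, and the log2 fold change was -0.06 (SE 0.13, 95% interval -0.36 to 0.25).

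The second RGS member, TRINITY_DN917_c0_g1_i1-C1A, matched a bud site selection protein named after Rax1, which marks the poles of the cell for budding in *Saccharomyces cerevisiae*, and is called *rax1* here. KEGG named it instead as the ADP-ribosylation factor-binding protein GGA, so the annotation does not settle its role. It had 41.8, 40.2 and 42.7 FPKM with taurine, against 44.7, 43.2 and 41.1 FPKM in the control. It was the steadiest of the named members in the control, with a coefficient of variation of 3.04% in the taurine libraries and 4.28% in the control libraries. The log2 fold change was -0.05 (SE 0.07, 95% interval -0.22 to 0.13).

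The third RGS member, TRINITY_DN8924_c0_g1_i1-S2A, matched the hypothetical protein MPDQ_005036 and an RGS protein of *Aspergillus niger*, while KEGG named it as a regulatory subunit of protein phosphatase 2A, so the annotation does not settle its role. It had 24.1, 21.7 and 27.4 FPKM with taurine, against 18.2, 37.7 and 23.5 FPKM in the control. Control replicate 2 was the highest and control replicate 1 the lowest library, and the taurine libraries lay between them. The coefficient of variation was 11.8% with taurine and 38.1% in the control, and the log2 fold change was -0.06 (SE 0.26, 95% interval -0.68 to 0.56). It was 0.22 without control replicate 2.

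The order by level leaves out TRINITY_DN41_c0_g1_i4-C3A, which matched the same protein as *mga2* and had 5.51 to 9.81 FPKM, below *mga3* in each library. Of the 6 genes left, *mga1* was the highest and *mga3* the lowest in all 6 libraries. The RGS gene of MPDQ_005036 was next above *mga3* in all 6. The sums of *mga1* (117 to 139.85 FPKM) did not come near the next gene. The ranges of the *mga2* sum (42.6 to 54.4), *rax1* (40.2 to 44.7) and *flbA* (32.6 to 44.7) overlapped over libraries. Within each of the 6 libraries, however, the *mga2* sum was above *flbA*. Only *rax1* changed place, above the *mga2* sum in control replicate 1 and below *flbA* in control replicate 2. With TRINITY_DN41_c0_g1_i4-C3A added, the *mga2* sum (48.2 to 63.7) was above *rax1* in all 6. The range of *flbA* also overlapped that of the RGS gene of MPDQ_005036 (18.2 to 37.7), though *flbA* was the higher in all 6 libraries. The range of the MPDQ_005036 gene in turn overlapped that of *mga3* (15.0 to 18.8). The share of *mga1* in the summed FPKM of the 13 alpha members was 62.2% to 62.8% with taurine and 63.0% to 64.9% in the control. These shares did not overlap, but they were picked after their values were seen and are given with no test.

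**Figure D3:**
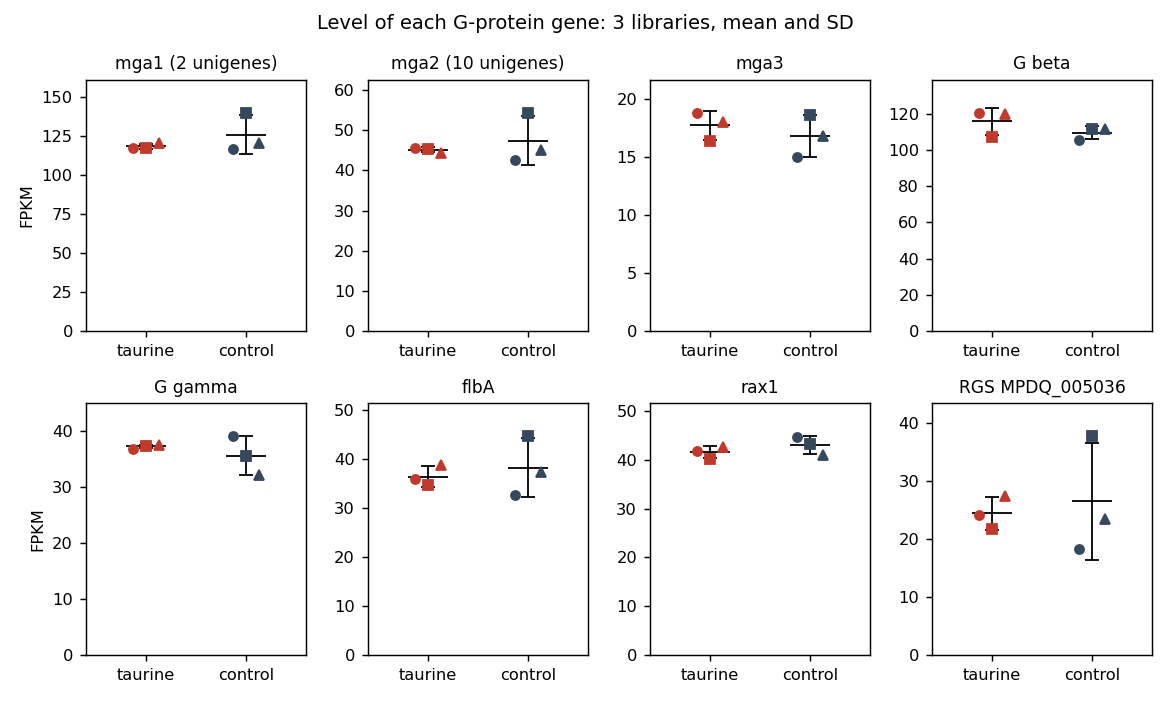
FPKM of the alpha, beta and gamma subunit genes and the RGS genes, each panel from 0, with the 3 taurine libraries at the left and the 3 control libraries at the right (circle, square and triangle for replicates 1, 2 and 3; bars are the mean and SD). The groups overlap in all 8 panels, and control replicate 2 is the highest library for *mga1*, *mga2*, *flbA* and the RGS gene of MPDQ_005036.

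Control replicate 2 was the highest library for 6 of 16 members, and for 28.3% of all tested unigenes. The SD over the taurine libraries was smaller than that over the control libraries for 14 of 16 members, and for 64.3% of all tested unigenes. Summed over the 13 alpha members, FPKM was 189, 186 and 192 with taurine, against 180, 222 and 189 in the control. Over the 3 RGS members it was 102, 96.5 and 109 with taurine, against 95.6, 126 and 102 in the control. In both sums control replicate 2 was the highest and control replicate 1 the lowest of the 6 libraries, so the taurine libraries lay within the range of the control. The part of control replicate 2 in these values was not tested beyond leaving it out, and no member passed an adjusted p of 0.05 without it.

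**Figure D4:**
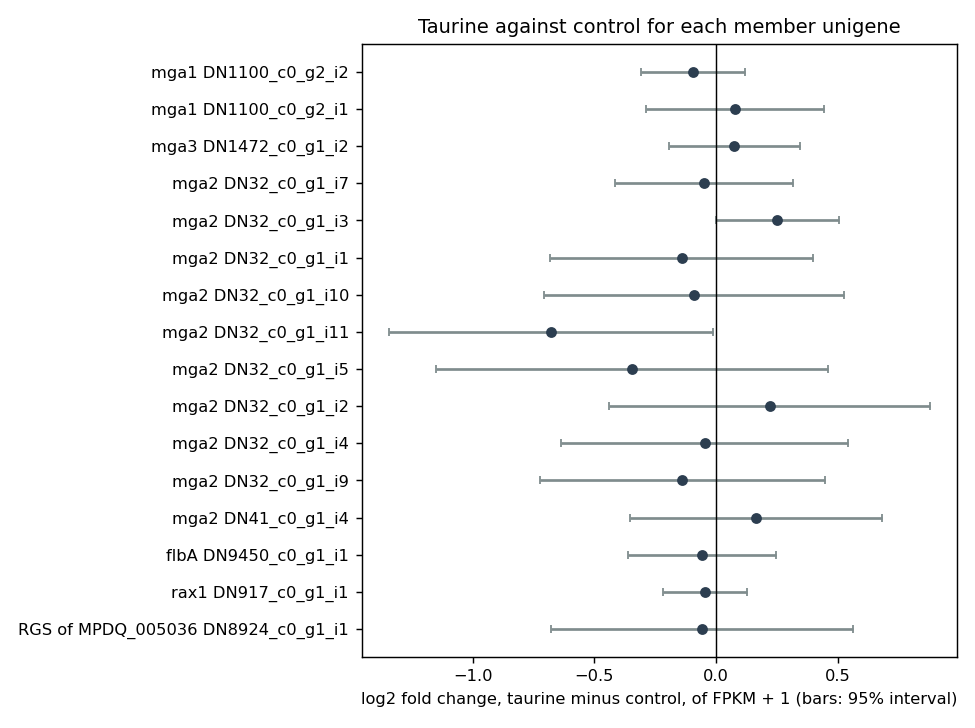
Log2 fold change (taurine minus control, of FPKM + 1) of each of the 16 members, with its 95% interval from limma. The intervals of 15 members include 0; that of *mga2* isoform i11 runs from -1.35 to -0.01, with an adjusted p of 0.999.

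The partners of the alpha subunits were set beside them from lists made by annotation. The G beta subunit, TRINITY_DN1137_c0_g2_i1-C1A, had 121, 107 and 119.7 FPKM with taurine, against 105, 112 and 111 FPKM in the control. Its level was close to that of *mga1*, at a ratio of 0.916 to 1.03 with taurine and 0.799 to 0.926 in the control. The G gamma subunit, TRINITY_DN3604_c0_g1_i1-S3A, had 36.8, 37.3 and 37.4 FPKM with taurine, against 39.0, 35.5 and 32.2 FPKM in the control. The groups overlapped for beta, for gamma and for the ratio, and an exact permutation test gave p = 0.3 for beta, 0.6 for gamma and 0.2 for the ratio. Permutation of single unigenes and of ratios was not planned. In limma the unadjusted p was 0.343 for beta and 0.486 for gamma. The ratio of *flbA* to *mga1* was 0.296 to 0.322 with taurine and 0.280 to 0.320 in the control (exact permutation p = 0.8).

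Over 9 unigenes of the beta, gamma and helper list, which also holds phosducin-like chaperones of the beta and gamma pair and the synembryn (Ric8) exchange factor, none passed an adjusted p of 0.05 and none an unadjusted p under 0.05. The median log2 fold change was 0.05, against 0.02 over all tested unigenes. The most abundant unigene of the list, TRINITY_DN1427_c0_g1_i1-C3A, matched Cpc2, a ribosome-bound protein of the RACK1 type that is built like a G beta subunit. It had 1702, 1703 and 1716 FPKM with taurine, against 1789.7, 1285 and 1728 FPKM in the control. Here control replicate 2 was the lowest library, and the log2 fold change was 0.11 (SE 0.16).

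The list of receptors, made by Pfam domain, had 10 matched unigenes, of which 8 were tested, none past an adjusted p of 0.05 or an unadjusted p under 0.05. Whether these receptors act on the alpha subunits described here was not tested. They comprise both pheromone receptors, glucose receptors of the Gpa2 type and receptors of the cyclic AMP type. The most abundant, TRINITY_DN1770_c0_g1_i1-C2A, carries a receptor domain of 7 membrane-spanning helices that is named after lung. It had 79.2, 72.5 and 76.7 FPKM with taurine, against 66.9, 64.5 and 71.9 FPKM in the control. Each taurine library was above each control library, and the log2 fold change was 0.17 (SE 0.08, 95% interval -0.02 to 0.35; unadjusted p = 0.069, adjusted p = 0.999 in limma). The median over the list was -0.03.

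Downstream, the cyclic AMP and protein kinase A list had 12 tested unigenes, and none passed an adjusted p of 0.05 or an unadjusted p under 0.05. The median log2 fold change was 0.02. Its most abundant unigene, TRINITY_DN1562_c0_g1_i1-S1A, encodes the regulatory subunit that holds protein kinase A inactive until cyclic AMP binds. It had 96.7, 84.5 and 94.4 FPKM with taurine, against 85.5, 84.97 and 91.8 FPKM in the control. The groups overlapped, and the log2 fold change was 0.07 (SE 0.08).

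The list of MAP kinase cascade members and Ste12 had 26 tested unigenes, none past an adjusted p of 0.05, with a median log2 fold change of 0.04. The most abundant was TRINITY_DN611_c0_g1_i1-S3A, which matched Ste12, the transcription factor at the end of the pheromone cascade in *S. cerevisiae*. It had 106, 91.6 and 96.1 FPKM with taurine, against 88.0, 112 and 98.2 FPKM in the control. The log2 fold change was -0.02 (SE 0.11), with interleaved groups. At an unadjusted p under 0.05, 1 of the 26 was higher with taurine, as 1.63% of all tested unigenes were. It was an isoform of a MAP kinase kinase, TRINITY_DN1864_c0_g1_i1-S1A, named after its values were seen. It had 5.98, 5.25 and 4.12 FPKM with taurine, against 2.69, 3.34 and 3.61 FPKM in the control, a log2 fold change of 0.53 (SE 0.19, unadjusted p = 0.0286, adjusted p = 0.999 in limma). The more abundant isoform of the same gene, TRINITY_DN1864_c0_g1_i2-S1A, had 39.9, 34.5 and 39.0 FPKM with taurine, against 35.7, 40.1 and 40.6 FPKM in the control. Its groups overlapped, at a log2 fold change of -0.04 (SE 0.09). The lowest log2 fold change of the list, also named after its values were seen, was that of TRINITY_DN10161_c0_g1_i1-C2A. That unigene had 0, 0.8 and 0.41 FPKM with taurine, against 0.78, 5.77 and 1.77 FPKM in the control. The groups overlapped, at a log2 fold change of -1.24 (SE 0.53, unadjusted p = 0.057, adjusted p = 0.999 in limma). This unigene is only 423 bases long, carries no Pfam domain and matched the hypothetical protein MPDQ_001300. Longer unigenes of the same match, TRINITY_DN2018_c0_g1_i1-C1A and TRINITY_DN9313_c0_g1_i1-S3A, had log2 fold changes of -0.09 (SE 0.22) and 0.28 (SE 0.23).

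Over the 4 lists together, 55 unigenes were tested, 0 passed an adjusted p of 0.05 in limma, 1 had an unadjusted p under 0.05 (2.66% of all tested unigenes did), and 2 had taurine libraries above all control libraries (3.78% of all tested unigenes did), so both counts are near the background. Some listed unigenes carry the KEGG name of a gene that their protein match does not name, such as TRINITY_DN8265_c0_g1_i1-C1A, listed through KEGG but matched to a succinate dehydrogenase assembly factor, so the lists are as good as the annotation.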

How the data were processed

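RNA of *M. purpureus* MP2022 was sequenced by de novo RNA-Seq (3 taurine and 3 control libraries). The authors deposited FPKM per unigene, with annotation. The submitters' processing notes name Bowtie2 2.2.5, RSEM 1.2.8 and DESeq. Their roles are not stated in the sources. Columns of fold changes, p-values and q-values of the authors' own comparison were not used. Library columns were matched to samples by name, so directions hold as far as those names do.

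FPKM was used as deposited, on the log2 scale after adding 1. The 20381 unigenes that averaged 0.1 FPKM or more were tested with limma 3.58.1 (lmFit, eBayes with trend; R 4.3.3), two-sided, with Benjamini-Hochberg adjustment and a threshold of 0.05. No covariate was used. The procedure was tested on simulated data with changes larger than that of any member, placed in well expressed unigenes. No simulated library stood apart as control replicate 2 did. The simulation therefore does not show whether changes as small as those of the members would be found. Sums of isoforms were compared by exact permutation. The same test was added, beyond the plan, for G beta, G gamma and the ratios to *mga1*. Tables were handled with Python 3.11.15 and pandas 2.3.3. Depth was estimated from low FPKM values of unigenes of 450 to 800 bases, part of them held out, and extrapolated to longer unigenes.

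Members and lists were chosen with earlier results of these data known. Members that averaged 1 FPKM or more were named, those below it only at an unadjusted p under 0.05, and from each list the most abundant unigene and any past an adjusted p of 0.05. A list of conidial markers matched 0 unigenes and gave no values. The alternatives were a pseudocount of 0.1, no filter, a minimum mean of 1, rescaling to TPM (a library total of 1000000), quantile normalization, isoforms summed, a replicate block, and leaving out each library. The table of gene names supplied matched 0 unigene identifiers and 0 locus tags.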

Additional observations from a re-analysis of the deposited data

How the results depend on the processing

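No member and no pathway list unigene passed an adjusted p of 0.05 under any of the 13 alternatives, and the adjusted p of the members ran from 0.819 to 1.000. Of 191 member values under an alternative, 181 kept their sign, and the 10 that did not came from leaving out 1 library. Over all tested unigenes the count at an adjusted p of 0.05 was 8, it ran from 3 to 16 with 1 library left out, and it was 0 with the replicate number as a block. The same numbers had correlations of deviations of -0.022, -0.034 and -0.009, so they were not taken to pair the libraries. The range with 1 library left out was -0.10 to 0.12 for the alpha median, -0.16 to 0.06 for the RGS median, -0.14 to -0.01 for the log2 ratio of the *mga1* sum and -0.142 to 0.039 for that of the *mga2* sum, where only leaving out control replicate 2 turned the sign. Members whose groups do not overlap numbered 2 of 16 after rescaling to TPM, against 6.37% of all tested unigenes, and 1 to 4 of 16 with 1 library left out, where 12.1% to 17.5% of all tested unigenes had groups that did not overlap. With 1 library left out, the log2 fold change ran from -0.164 to 0.057 for *flbA* (TRINITY_DN9450_c0_g1_i1-C2A), from -0.284 to 0.221 for TRINITY_DN8924_c0_g1_i1-S2A, from -0.000287 to 0.146 for *mga3* (TRINITY_DN1472_c0_g1_i2-C1A), from -0.056 to 0.148 for *mga1* isoform TRINITY_DN1100_c0_g2_i1-C2A, from 0.009 to 0.344 for TRINITY_DN41_c0_g1_i4-C3A, and for the *mga2* isoforms from -0.602 to -0.179 (i5), -0.138 to 0.091 (i7), -0.370 to 0.030 (i1), -0.266 to 0.188 (i10) and -0.139 to 0.044 (i4). The *mga2* isoforms i3 (0.212 to 0.323) and i11 (-0.883 to -0.546) kept their sign. So did *rax1* (-0.078 to -0.018), the main *mga1* isoform (-0.139 to -0.016) and *mga2* isoform i2 (0.067 to 0.357). Isoform i9 kept its sign in the fits that held it (-0.241 to -0.108). Of the sign changes, 6 came without control replicate 2, 2 without control replicate 1 and 2 without taurine replicate 2. The cause was not tested. With 3 libraries a group and 95% intervals of the log2 fold change reaching from -0.31 to 0.12 for *mga1* and from -0.68 to 0.56 for TRINITY_DN8924_c0_g1_i1-S2A, changes inside such intervals could not be told from 0.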
